A study of Homo sapiens with 4 samples.

Results

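The 10 genes described here are OSMR, the receptor chain for oncostatin M, the kinases JAK1, JAK2 and TYK2, the transcription factors STAT3, STAT5A, STAT5B and STAT6, and the feedback inhibitors SOCS1 and SOCS3. They were chosen by gene name, as STAT3 and its JAK, STAT and SOCS relatives with OSMR, and not by their measured values. All 10 were found among the 26485 gene names of the tables, and all 10 passed the minimum for comparison in both cell lines.

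mRNA was sequenced from SW1736 and 8505C, established cell lines derived from human anaplastic thyroid cancer (ATC), and from a paclitaxel-resistant derivative of each, in 4 libraries, 1 for each condition. Paclitaxel is a taxane that stabilizes microtubules. SW1736 wt and 8505C wt are the parental cells, which received no paclitaxel. SW1736-PTX and 8505C-PTX were selected over 6 months with paclitaxel at doses from 1 nM up to 1.5 µM and were afterwards kept in 1.5 µM, so that the history of selection and the presence of the drug cannot be told apart. The comparison of PTX with wt cells of a line asks which transcripts differ after resistance was acquired.

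In this pathway a cytokine brings receptor chains together, and the JAK kinases bound to the chains phosphorylate one another and the receptor. STAT proteins dock there, are phosphorylated, pair up and enter the nucleus to switch on target genes. Among these targets are the SOCS genes, whose products block the kinases or the receptor and so close a feedback loop. STAT3 is the main factor used by the interleukin-6 family, which signals through the shared chain gp130, STAT5A and STAT5B serve growth hormone, prolactin and several interleukins, and STAT6 serves interleukin-4 and interleukin-13. The values below are mRNA levels and say nothing of phosphorylation, which was not analysed here.

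Levels are given as FPKM, the aligned fragments per kilobase of transcript and per M aligned fragments, so that levels of different genes can be set side by side. A change is log2((a + 0.1)/(b + 0.1)) of FPKM, which understates the change of low genes. Genes that exceeded 0.5 FPKM in 1 or both libraries of a comparison were compared, and a change above 1.5 or below -1.5 was called. The libraries held between 43.5 and 57.9 M reads as computed from coverage and FPKM. Each condition has 1 library, so differences could not be tested against the variation between cultures and no p-value is given, nor do SW1736 and 8505C replicate one another. Intervals are 95% Poisson intervals of the log2 ratio of FPKM without the 0.1, and cover counting error only.

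The library labelled SW1736-PTX stood apart from its parental line. Over 14692 genes, its log2 FPKM correlated with those of 8505C wt at r = 0.873 and with those of SW1736 wt at r = 0.767. SW1736-PTX and 8505C-PTX correlated at r = 0.933, the highest of all pairs of libraries, and SW1736 wt and 8505C wt at r = 0.845. The thyroid factor NKX2-1 had an FPKM of 0 in SW1736 wt but of 36.3, 30.5 and 39.0 in SW1736-PTX, 8505C wt and 8505C-PTX, whereas PAX8 was at 38.2 FPKM in SW1736 wt and at most 0.206 elsewhere. The thyroid markers TG, TSHR and SLC5A5 were at or near 0 in all 4 libraries. Epithelial KRT8 ranged from 331 to 974 FPKM and KRT18 from 257 to 1437 FPKM. EPCAM and CDH1, also epithelial, were at most 0.0806 and 0.0277 FPKM, and mesenchymal VIM ranged from 1321 to 3684 FPKM. The summed level of 5 leukocyte markers ranged from 0.576 to 4.55 FPKM. That of 3 endothelial markers ranged from 0.0187 to 55.9 FPKM, nearly all CDH5 in 8505C wt, and that of 3 fibroblast markers from 0.119 to 6.81 FPKM. The part of these differences in the changes below was not tested. The SW1736 changes of the 10 genes are therefore also given with 8505C wt in place of SW1736 wt. For many of the other genes that the text names from the lists, the change or the call is given so too. This comparison shares a library with each of the 2 pairs.

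Across the 4 libraries the levels spanned from 0.590 FPKM for SOCS1 in 8505C wt to 67.2 FPKM for OSMR in 8505C-PTX. In SW1736 wt the order was JAK1, TYK2, STAT6, STAT3, OSMR, STAT5B, SOCS3, JAK2, STAT5A and SOCS1. In the other 3 libraries OSMR stood first, and STAT3 stood second in both PTX libraries. JAK2, STAT5A and SOCS1 held the lowest 3 places in all 4 libraries. Without replicates the neighbours in this order cannot be shown to differ.

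**Figure D1:**
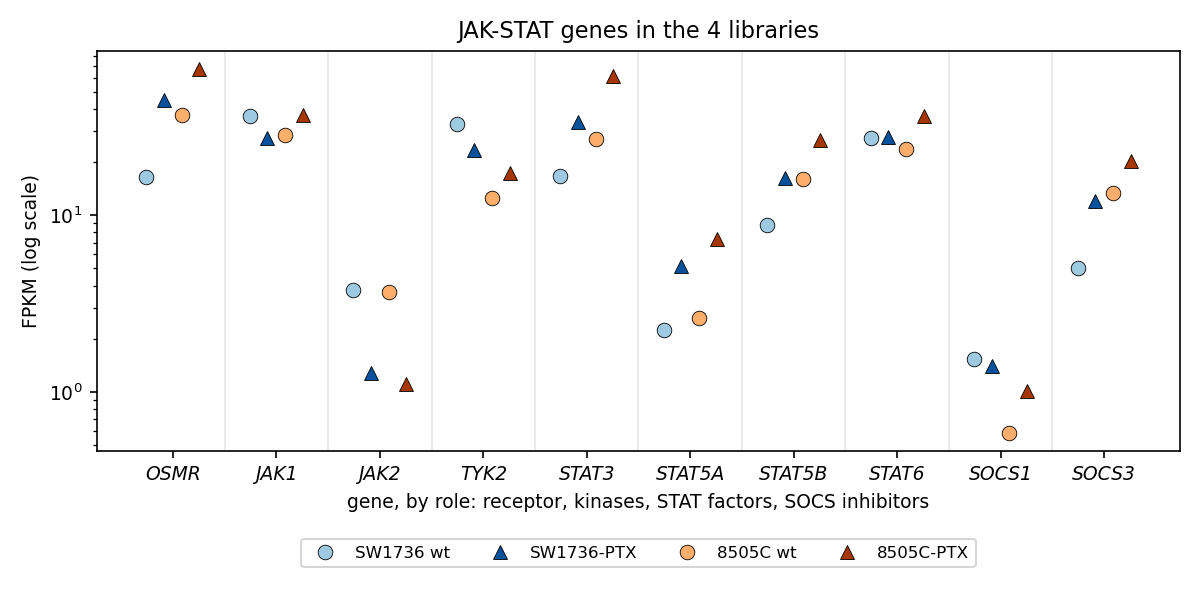
FPKM on a log axis of the 10 genes in each of the 4 libraries, 1 point per library, with no error bar because each condition has 1 library. The PTX points of OSMR, STAT3 and STAT5A lie above the wt points of both lines, those of JAK2 lie below them, and JAK1, TYK2 and SOCS1 show no common order.

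OSMR pairs with gp130 to receive oncostatin M, and with IL31RA to receive interleukin-31. Its gene lies on the plus strand at chr5:38845858-38935641 (hg38). SW1736 wt had 16.5 FPKM of OSMR, SW1736-PTX 44.8, 8505C wt 37.0 and 8505C-PTX 67.2. Both PTX libraries were above both wt libraries, although 8505C wt was closer to SW1736-PTX than to SW1736 wt. The change was 1.44 in SW1736 (counting interval 1.39 to 1.49) and 0.86 in 8505C (0.82 to 0.90), and it was 0.27 when SW1736-PTX was set against 8505C wt. The 1.44 was larger than that of 83.6% of the genes compared in SW1736 and just missed the limit of 1.5.

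Among the kinases, JAK2 alone moved the same way in both lines. JAK2 transmits signals of growth hormone, erythropoietin and the gp130 family, and lies at chr9:4985245-5128183 on the plus strand. SW1736 wt had 3.79 FPKM, SW1736-PTX 1.29, 8505C wt 3.70 and 8505C-PTX 1.11. The wt libraries were nearly level and both PTX libraries stood below them. The change was -1.65 in 8505C (interval -1.90 to -1.57), which was called and lower than in all but 4.68% of the genes compared. It was -1.49 in SW1736 (-1.71 to -1.41), short of the limit, and -1.45 against 8505C wt, so it was of a like size with either reference. With a pseudocount of 1 FPKM the 8505C change was -1.15 and no longer called, and with 0.01 or with TPM the SW1736 change was called too.

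JAK1, which serves the interferon, gp130 and common gamma chain receptors, lies on the minus strand at chr1:64833223-64966504. The JAK1 level was 36.3 FPKM for SW1736 wt, 27.3 for SW1736-PTX, 28.4 for 8505C wt and 36.8 for 8505C-PTX. TYK2, the partner kinase of the type I interferon and interleukin-12 receptors (chr19:10350528-10380572, minus strand), stood at 32.6, 23.4, 12.6 and 17.3 FPKM in that order of libraries. Both were lower in SW1736-PTX than in SW1736 wt, with changes of -0.41 and -0.47, and higher in 8505C-PTX than in 8505C wt, with changes of 0.37 and 0.46. Against 8505C wt, the SW1736-PTX library gave -0.06 for JAK1 and 0.89 for TYK2, so the direction of TYK2 depended on the reference. The wt lines differed more in TYK2, by -1.37 for 8505C wt over SW1736 wt, than either line did between its wt and PTX cells. JAK2 made up 5.22% of the summed FPKM of the 3 kinases before and 2.48% after selection in SW1736, and 8.26% and 2.01% in 8505C.

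The genes of STAT5B, STAT5A and STAT3 lie side by side within 189 kb of chromosome 17. STAT5B (chr17:42199177-42276406, minus strand) and STAT5A (chr17:42287547-42311942, plus strand) start 11.1 kb apart and point away from each other, and STAT5A and STAT3 (chr17:42313325-42388495, minus strand) end 1382 bases apart. All 3 were higher in PTX than in wt cells of each line, and none was called. The STAT3 level was 16.8 FPKM for SW1736 wt, 33.6 for SW1736-PTX, 26.9 for 8505C wt and 61.7 for 8505C-PTX. Both PTX libraries exceeded both wt libraries, the nearest being SW1736-PTX and 8505C wt. Its change was 1.00 in SW1736 (interval 0.95 to 1.06), larger than that of 77.9% of the genes compared, and 1.19 in 8505C (1.15 to 1.24), larger than that of 80.8%. Against 8505C wt the STAT3 change in SW1736-PTX was 0.32.

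For STAT5A, SW1736 wt had 2.25 FPKM, SW1736-PTX 5.15, 8505C wt 2.62 and 8505C-PTX 7.36. Its wt levels were close to each other and both PTX levels lay above them. The change was 1.16 in SW1736 (interval 1.03 to 1.36) and 1.46 in 8505C (1.34 to 1.65), and 0.95 against 8505C wt. The 8505C value was larger than that of 84.6% of the genes compared and again fell short of 1.5. The STAT5B levels, in that order, were 8.78, 16.2, 16.0 and 26.7 FPKM. SW1736-PTX and 8505C wt were level for STAT5B, with a change of 0.02 between them (interval -0.04 to 0.08). Its change was 0.88 in SW1736 and 0.73 in 8505C. STAT5B was the more abundant of the 2 STAT5 genes in every library, by a ratio of FPKM between 3.15 in SW1736-PTX and 6.11 in 8505C wt.

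STAT5A and STAT5B share sequence, so reads could be exchanged between them. Of the 3696 windows of 75 bases, the read length, in the STAT5A transcript of GENCODE release 44, 421 (11.4%) also occur in STAT5B, and these are 8.41% of the 5005 windows of STAT5B. No window of the other 8 transcripts occurs in another gene. The longest run of identical sequence is 429 bases and codes for protein in both genes, from position 675 to 1103 of the STAT5A transcript and from 718 to 1146 of STAT5B. Its first 75 bases, the length of 1 read that cannot be assigned to either gene, are shown here in lower case.
STAT5A and STAT5B, first 75 shared bases: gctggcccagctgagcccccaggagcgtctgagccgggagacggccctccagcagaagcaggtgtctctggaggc
How such reads were divided is not given in the sources used here, so the levels of the 2 genes are uncertain. These shares of windows do not bound the uncertainty. STAT5B was the more abundant in every library, so STAT5B reads credited to STAT5A could exceed 11.4% of the STAT5A level.

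STAT6 lies apart from the other STAT genes, on chromosome 12 (chr12:57095405-57111413, minus strand). SW1736 wt and SW1736-PTX both had 27.5 FPKM, 8505C wt 23.7 and 8505C-PTX 36.5. The 8505C-PTX library was thus above the other 3, which were close. The change was 0.00 in SW1736 (interval -0.05 to 0.05), 0.62 in 8505C and 0.21 against 8505C wt. STAT6 overlaps NAB2 on the opposite strand by 72 bases, and JAK1 overlaps RAVER2 by 9. Summed over STAT3, STAT5A, STAT5B and STAT6, the level was 55.3 FPKM for SW1736 wt, 82.5 for SW1736-PTX, 69.3 for 8505C wt and 132 for 8505C-PTX. STAT3 made up 30.3%, 40.7%, 38.9% and 46.6% of that sum, in the same order.

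SOCS3, which binds gp130 and JAK kinases and is itself a STAT3 target, lies at chr17:78356777-78360079 on the minus strand, far from the STAT genes. Its level was 5.05 FPKM for SW1736 wt, 12.0 for SW1736-PTX, 13.3 for 8505C wt and 20.2 for 8505C-PTX. PTX was above wt within each line, but SW1736-PTX was below 8505C wt. The change was 1.23 in SW1736 (interval 1.12 to 1.38) and 0.60 in 8505C (0.52 to 0.69), and -0.15 against 8505C wt. SOCS1, which inhibits JAK1, JAK2 and TYK2 directly (chr16:11254417-11256182, minus strand), was at 1.53, 1.39, 0.590 and 1.01 FPKM, the values of about 93, 100, 32 and 67 reads. Its interval in SW1736, -0.56 to 0.29 around a change of -0.12, spans 0, so no difference was detectable at this depth. In 8505C its change was 0.69 (0.14 to 1.42), and against 8505C wt the SW1736-PTX change was 1.12. The ratio of SOCS3 to SOCS1 was 3.31 and 8.61 in SW1736 wt and PTX, and 22.5 and 20.0 in 8505C wt and PTX.

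STAT6 dimers prefer a palindrome with 4 free bases between TTC and GAA, which reads the same on either strand, so both strands were searched. In the 250 bases before the start of each gene as listed, it occurred in 4.97% of 25101 windows and, among the 10 genes, in that of STAT6 alone. The match is shown 5′ to 3′ on the strand of the gene, from hg38, with the motif in capitals, because the factor's own gene holds it.
STAT6, chr12:57111566-57111635, minus strand: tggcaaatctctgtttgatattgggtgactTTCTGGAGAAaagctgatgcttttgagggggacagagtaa
The match begins 192 bases before the listed start. It describes the letters of the window and is not a measured binding site.

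Read as a group, the 10 genes had a median change of 0.44 in SW1736, against 0.01 over all 14202 genes compared, and of 0.65 in 8505C, against 0.11 over 13794. With 8505C wt as the reference for SW1736-PTX, the median was 0.24 against 0.10 over 13824 genes. None of the 10 was called up in either line, where 15.7% of all genes in SW1736 and 15.0% in 8505C were. None was called down in SW1736, where 10.2% of all genes were, and JAK2 alone was in 8505C, where 5.89% were. Against 8505C wt none was called in SW1736-PTX, with 15.1% of all genes up and 5.23% down. A change above 1 was seen for STAT5A, SOCS3 and OSMR in SW1736, 3 of 10 where the share of all genes was 22.1%, and for STAT3 and STAT5A in 8505C, 2 of 10 where it was 22.5%. A change below -1 was seen for JAK2 in each line, 1 of 10 where the share of all genes was 18.2% in SW1736 and 12.9% in 8505C. STAT3 in SW1736 lay just under 1 before rounding. A single gene is 10% of the group, and none of these counts of called genes, or of genes beyond 1, differed from the background share by as much as 2 genes. By sign alone, 6 of the 10 had a positive change in SW1736 and 9 in 8505C, against 50.3% and 54.3% of all genes. The 6 include STAT6, whose SW1736 change was 0.00.

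In both lines, 7 of the 10 genes changed in the same direction, as did 70.3% of the 13304 genes compared in both. The 7 include STAT6, whose SW1736 change was 0.00 with an interval that spans 0. STAT3, STAT5A, STAT5B, JAK2, SOCS3 and OSMR changed by more than 0.5 the same way in both lines, 6 of 10 against 36.5% of all genes. STAT5A and JAK2 did so by more than 1, against 18.2% of all genes. OSMR, STAT3, STAT5A, STAT5B and STAT6 were higher in both PTX libraries than in both wt libraries, a pattern that 32.1% of all genes had, and JAK2 was lower in both, as were 28.2%. For STAT6 and STAT5B the smallest gap was small, between 27.50 and 27.52 FPKM and between 16.0 and 16.2 FPKM.

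**Figure D2:**
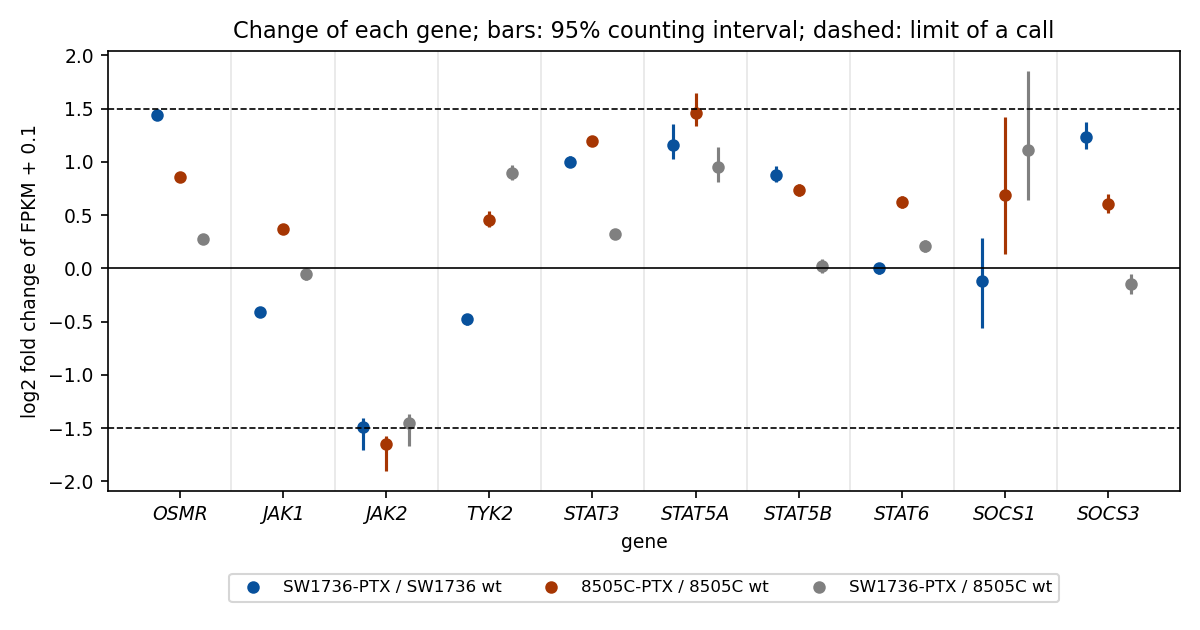
Log2 fold change of FPKM + 0.1 for each of the 10 genes in the SW1736 pair, the 8505C pair and SW1736-PTX against 8505C wt, with bars for the 95% counting interval and lines at the limits of 1.5 and -1.5. JAK2 lies between -1.65 and -1.45 in all 3 comparisons, while OSMR, STAT3 and SOCS3 lie at 0.60 or above in both pairs and between -0.15 and 0.32 with 8505C wt as the reference of SW1736-PTX.

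Between the parental lines, none of the 10 genes was called, where 17.6% of 13457 genes were. SOCS3 and OSMR were higher in 8505C wt than in SW1736 wt, by 1.38 and 1.16, and TYK2 and SOCS1 were lower, by -1.37 and -1.24. Between the PTX libraries none was called either, where 7.79% of 13986 genes were. There STAT3 was 0.87 higher in 8505C-PTX, followed by SOCS3 at 0.75 and STAT5B at 0.71, and no gene of the 10 differed by more than 1. The median absolute difference of the 10 genes was 0.77 between the wt lines and 0.47 between the PTX lines, against 0.56 and 0.33 over all genes.

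Most neighbours of the STAT5B, STAT5A and STAT3 locus were also higher in PTX than in wt cells of SW1736. Of the 51 other genes compared within 1 Mb, 42 were higher in SW1736-PTX than in SW1736 wt, with a median change of 0.86, close to the 0.88 of STAT5B and the 1.00 of STAT3. The median of all 801 genes compared on chromosome 17 was 0.57, against 0.01 over all genes. In 8505C 51 neighbours were compared too, not all of them the same genes, and 33 were higher in 8505C-PTX than in 8505C wt. Their median was 0.26 and that of chromosome 17 was 0.31, whereas STAT5B, STAT5A and STAT3 changed by 0.73, 1.46 and 1.19. With 8505C wt as the reference for SW1736-PTX, the medians were 0.33 and 0.24.

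Around JAK2 most neighbours were lower in PTX cells. In SW1736, 9 of 13 had a negative change and the median was -0.91, where that of chromosome 9 was 0.14. In 8505C, 9 of 14 had one and the median was -0.71, where that of chromosome 9 was -0.29. With 8505C wt as the reference for SW1736-PTX, the median of 13 neighbours was -0.89. The genes named here were chosen after their values were seen. RCL1, AK3 and RANBP6 changed by -2.07, -1.30 and -1.64 in SW1736, by -1.55, -1.13 and -1.81 in 8505C, and by -1.94, -1.18 and -1.53 in SW1736-PTX against 8505C wt. SLC1A1 and ERMP1 changed the other way, by 4.06 and 0.85 in SW1736 and by 3.15 and 0.71 in 8505C. In SW1736-PTX against 8505C wt they changed by 3.43 and 1.33. CD274, which encodes the immune checkpoint ligand PD-L1 and lies 404 kb from JAK2 from centre to centre, had 3.86 FPKM in SW1736 wt and 10.9 after selection, 70.1 in 8505C wt and 9.59 after selection, with changes of 1.48 and -2.86. Its direction in SW1736-PTX turned with the reference, since the change against 8505C wt was -2.67. DNA copy number was not measured, and its part in these values was not tested. The 5 neighbours of OSMR in SW1736 had a median of 1.02, or of 0.58 against 8505C wt, and the 6 in 8505C one of 0.52.

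**Figure D3:**
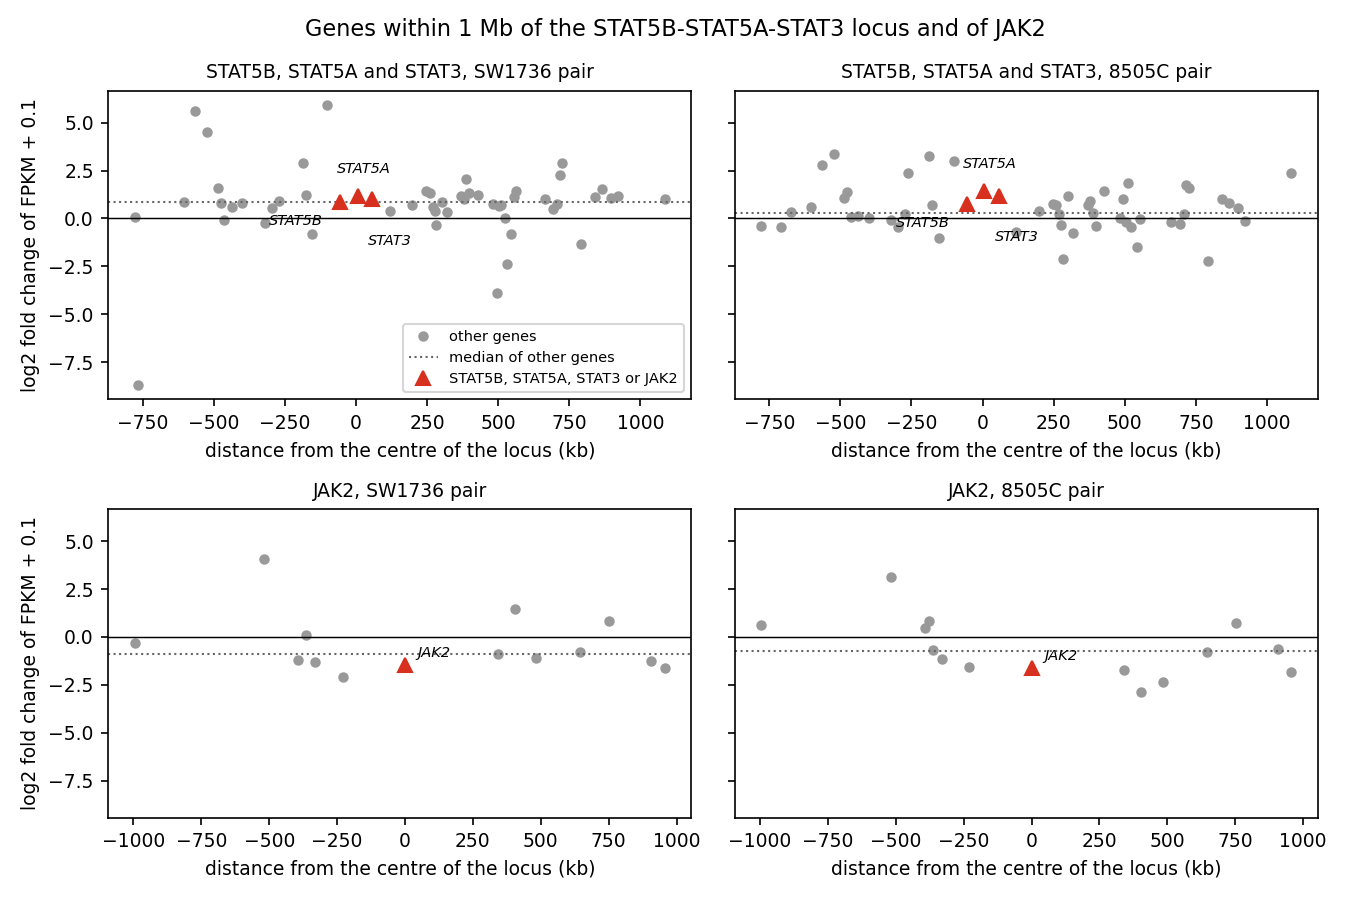
Log2 fold change of FPKM + 0.1 of the genes within 1 Mb of the STAT5B, STAT5A and STAT3 locus (top) and of JAK2 (bottom) against distance from the centre of the locus in kb, for SW1736 (left) and 8505C (right), with the dotted line at the median of the other genes. The median lies at 0.86 and 0.26 around the STAT genes and at -0.91 and -0.71 around JAK2.

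The rest of the pathway was described through lists of its other genes. The shares of all genes called, against which the counts of every list are read, were 15.7% up and 10.2% down in SW1736, 15.0% and 5.89% in 8505C, and 15.1% and 5.23% for SW1736-PTX against 8505C wt. Of the JAK and STAT genes outside the 10, JAK3, the kinase of the common gamma chain, was called up in both lines, in SW1736 from a listed 0 to 1.53 FPKM and in 8505C from 0.125 to 4.34 FPKM (4.30), and its change against 8505C wt was 2.85. The SW1736 call of JAK3 was lost with a pseudocount of 1 FPKM. Both of its calls were lost when both libraries had to exceed 0.5 FPKM. STAT2 was called up in 8505C, from 4.59 to 14.5 FPKM, and STAT4 was not compared. Of 6 other SOCS family genes, CISH, a feedback inhibitor induced by STAT5, was called up in both lines, from 0.191 to 1.29 FPKM (2.26) and from 0.452 to 1.54 FPKM (1.57). CISH changed by 1.33 in SW1736-PTX against 8505C wt, which was not called, and its 8505C call was lost with a pseudocount of 1 FPKM and with centring on the median of all genes. In SW1736 SOCS2 (2.50) and SOCS7 (1.65) were called up too, but against 8505C wt they changed by 1.04 and 0.68 and none of the 6 was called. In 8505C SOCS2 went the other way, with a change of -0.65, SOCS7 changed by 0.92, and neither was called. With a pseudocount of 1 FPKM the 3 calls up in SW1736 became 1. Of 10 other negative regulators, the PIAS proteins, the phosphatases and the adaptors, 9 were compared and 0 were called in either line.

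OSM, the gene of oncostatin M, was listed at 0 in all 4 libraries. Of the gp130 family ligands, 6 of 10 were compared in each line. LIF was called down in SW1736, from 47.1 to 0.106 FPKM, a change of -7.84, and was at 0.741 and 0.494 FPKM in 8505C wt and 8505C-PTX. Its change in SW1736-PTX against 8505C wt was -2.03. IL11 was called down in SW1736 (-2.86, and -1.58 against 8505C wt). EBI3 was called up (1.83, and 2.91 against 8505C wt, where it was listed at 0), a SW1736 call lost with a pseudocount of 1 FPKM. None of the ligands was called in 8505C. IL6 was at 11.5 and 26.7 FPKM in SW1736 wt and PTX, and at 6.85 and 8.96 FPKM in 8505C wt and PTX, and SW1736-PTX against 8505C wt gave 1.95. Of the receptors of the family, the gp130 gene IL6ST was at 18.0, 13.9, 36.2 and 51.4 FPKM and LIFR at 2.08, 4.32, 13.6 and 11.7 FPKM in the 4 libraries. LIFR changed by 1.02 in SW1736 but was called down in SW1736-PTX against 8505C wt (-1.63), where IL6ST changed by -1.38. OSMR over IL6ST was 0.914 and 3.23 in SW1736 wt and PTX, and 1.02 and 1.31 in 8505C wt and PTX. IL31RA, the partner of OSMR in the interleukin-31 receptor, was called down in both lines, by -1.89 and -1.55, and changed by -1.82 against 8505C wt. Its calls in both lines were lost with a pseudocount of 1 FPKM. IL6R was called up in SW1736 (3.06), but its change against 8505C wt was 0.09 and the call was lost with a pseudocount of 1 FPKM. IL11RA was called up in 8505C (1.70).

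Of 33 other cytokine receptors that couple to JAK kinases, 19 were compared in each line, of which 8 were called up and 3 down in SW1736 and 8 up and 1 down in 8505C. Of the genes called up, 5 in SW1736 and 4 in 8505C were listed at 0 in the wt library. Against 8505C wt 8 were up and 1 down in SW1736-PTX. The 8 and 8 called up became 2 and 2 with a pseudocount of 1 FPKM, and 0 and 1 when both libraries had to exceed 0.5 FPKM. IFNLR1, IL22RA1, IL2RG, LEPR and CRLF2 were called up in both lines, and all but LEPR were also called up against 8505C wt. IL2RG, the common gamma chain to which JAK3 binds, was listed at 0 in both wt libraries, at 0.907 FPKM in SW1736-PTX and at 0.980 FPKM in 8505C-PTX. LEPR, the leptin receptor, which signals through JAK2 and STAT3, went from 0.417 to 11.5 FPKM in SW1736 (4.49), and in 8505C from 4.50 to 13.5 FPKM (1.57), and changed by 1.34 against 8505C wt. IL7R was called down in both lines, by -2.94 and -2.06, and changed by -1.19 against 8505C wt, which was not called. The largest increase in SW1736 was that of CSF2RA, from a listed 0 to 3.84 FPKM (1.77 against 8505C wt), and in 8505C that of CRLF2, from a listed 0 to 2.80 FPKM, and both are listed on X and Y at the same positions, so their values are uncertain. Among genes whose higher FPKM was at most 5, 27.1% were called up in SW1736 and 26.1% in 8505C, against 10.4% and 9.70% of genes above 5.

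**Figure D4:**
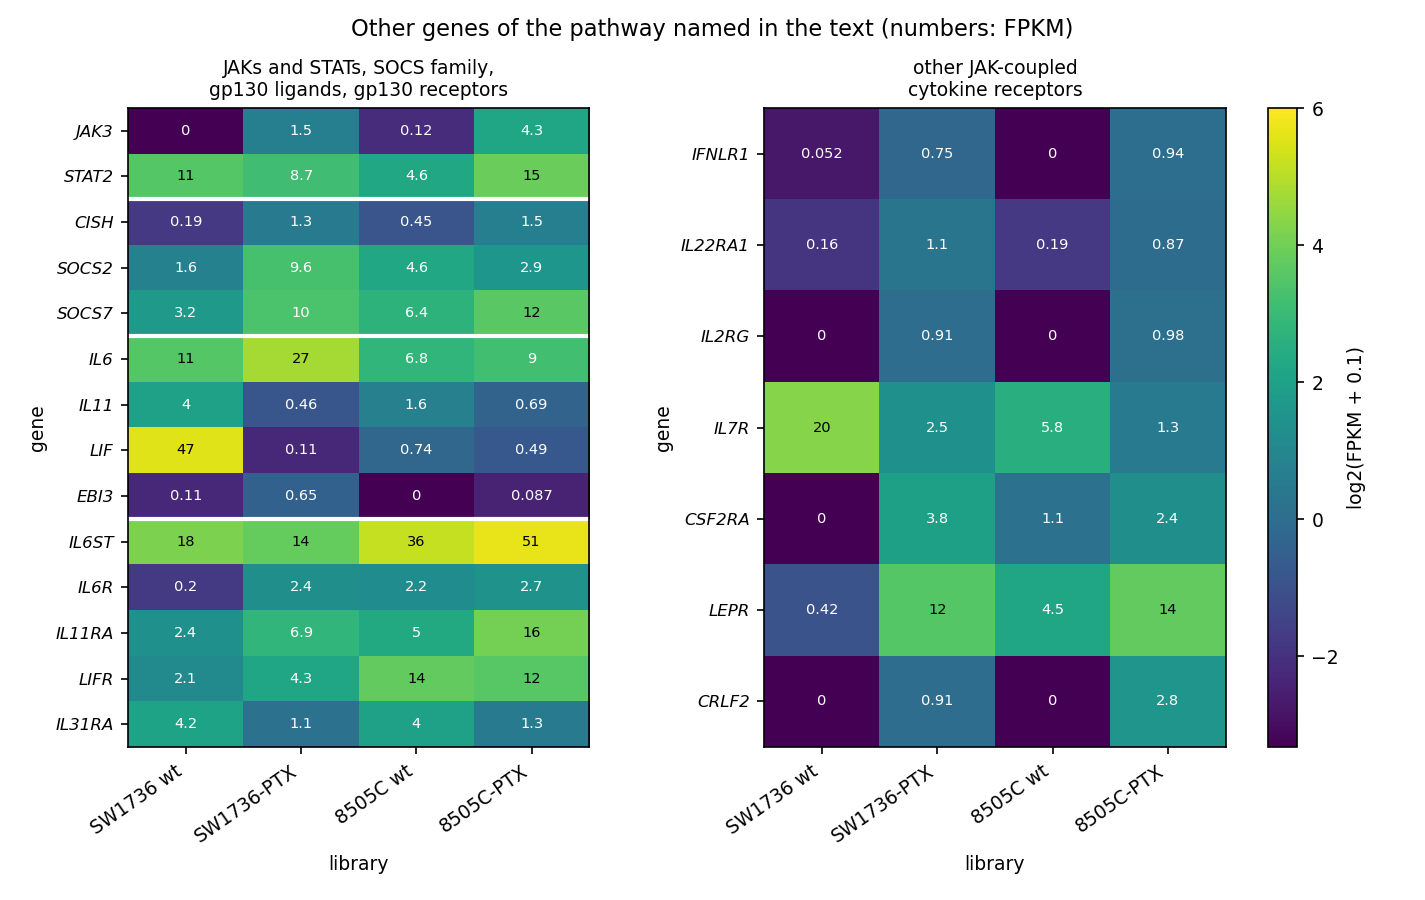
FPKM of other genes of the pathway that the text names, in the 4 libraries, with colour for log2(FPKM + 0.1) and the number for FPKM in each cell. JAK3 and IL2RG are at 0 or 0.12 in the wt columns and between 0.91 and 4.3 in the PTX columns, and LIF is at 47 in SW1736 wt and below 1 in the other columns.

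The target lists give the measured level of genes that the STAT factors are known to bind, and some of these answer to other factors too. Of 35 STAT3 targets, which include OSMR, STAT3 and SOCS3 themselves, 26 were compared in SW1736, with 7 called up and 0 down, and a median change of 0.82 against 0.01 over all genes. In 8505C 27 were compared, with 7 up and 2 down, and a median of 0.80 against 0.11. With 8505C wt as the reference of SW1736-PTX, 4 of 27 were up and 3 down and the median was 0.33 against 0.10. With a pseudocount of 1 FPKM, 3 were up in SW1736 and 4 in 8505C. CEBPD, FGG and SAA1 were called up in both lines, and of these SAA1 alone was called up against 8505C wt too. SAA1 was listed at 0 in both wt libraries and was low in the PTX libraries. It was at 1.41 FPKM in SW1736-PTX and at 0.538 FPKM in 8505C-PTX, just above the minimum of 0.5. CEBPD, a transcription factor of the acute phase response, was 5.68 FPKM before and 25.7 FPKM after selection in SW1736 (2.16), and 11.7 and 54.5 FPKM in 8505C (2.21), and its change against 8505C wt was 1.13. FGG, the fibrinogen gamma chain, went from 0 to 0.839 FPKM and from 4.63 to 42.4 FPKM, but was called down in SW1736-PTX against 8505C wt (-2.33). TWIST1 had the largest increase in SW1736, from a listed 0 to 8.06 FPKM, but was at 6.37 FPKM in 8505C wt (0.33), and FGB the largest decrease in 8505C (-1.96), from 0.840 to 0.142 FPKM.

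Of 11 STAT5 targets, 8 were compared in SW1736 and 7 in 8505C. CISH, SOCS2 and CCND2 were called up and PIM2 down in SW1736, and CISH and BCL6 were called up in 8505C. With a pseudocount of 1 FPKM, 1 was up and 0 down in SW1736 and 0 were called up in 8505C. Against 8505C wt, CCND2 alone of 8 was called in SW1736-PTX. CCND2, which encodes cyclin D2, went from 0 to 1.30 FPKM in SW1736, and PIM2 from 14.4 to 4.79 FPKM (-1.57), but PIM2 was at 4.10 FPKM in 8505C wt, so that its direction turned with the reference (0.22). BCL6, a transcriptional repressor, rose from 3.44 to 10.8 FPKM in 8505C. Of 12 STAT6 targets, 6 and 5 were compared. POSTN, which encodes periostin, was called in opposite directions, in SW1736 from 2.17 to 0.119 FPKM (-3.37, and -3.10 against 8505C wt) and in 8505C from 1.79 to 35.1 FPKM (4.22). CCL26, listed at 0 in both 8505C libraries, was also called down in SW1736. It was not compared against 8505C wt, as SW1736-PTX had 0.259 FPKM. CISH, called up in both lines, is on this list too. TGM2 was called up in 8505C, from 78.6 to 716 FPKM (3.19), and was level in SW1736, at 404 and 419 FPKM (0.05). Against 8505C wt, 5 were compared in SW1736-PTX, with TGM2 called up (2.41) and POSTN down.

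OSMR and SOCS3 had the widest ranges over the 4 libraries, 2.02 and 1.98 on the log2 scale. The genes with the profile most like that of OSMR, by the root mean square difference of centred log2(FPKM + 0.1) over the 4 libraries among 13304 genes, were NNT (0.047), YTHDF3-AS1 (0.068) and PHLDB2 (0.070). Those most like SOCS3 were ZNF391 (0.049), ZNF594 (0.067) and B4GAT1 (0.091). This likeness rests on 4 values a gene and is a description.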

How the data were processed

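RNA of 4 cultures was made into mRNA libraries and sequenced as single-end reads of 75 bases. The authors converted base calls with bcl2fastq 2.20, masked adapters with Cutadapt, trimmed with ERNE, aligned to hg38 with STAR and quantified genes with StringTie, whose annotation and the versions of the last 3 tools are not given in the sources used here. The authors deposited for each gene the coverage signal (mean reads per base, not scaled for depth), the FPKM and the TPM. The tables hold no counts, so no count test was used.

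The FPKM of rows with the same gene name were summed. Aligned bases, taken as the largest coverage divided by FPKM of any gene, were 3.67, 4.34, 3.27 and 4.02 Gb for SW1736 wt, SW1736-PTX, 8505C wt and 8505C-PTX, or 48.9, 57.9, 43.5 and 53.6 M reads. A gene's reads were its FPKM times the length of its GENCODE 44 transcript times that depth. The limits of 0.5 FPKM and 1.5 on the log2 scale follow the study's methods, and the pseudocount of 0.1 was chosen here. Calling was checked on simulated reads with planted changes and counting error only. Variation between cultures was not simulated, so this check cannot show how often calls arise from it. The motif and the shared windows were read from hg38 and GENCODE 44. Python 3.11.15, NumPy 2.4.6, pandas 2.3.3, SciPy 1.17.1 and matplotlib 3.10.9 were used.

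The 10 genes, the lists and the comparison with 8505C wt were chosen with earlier results of these data known. The text names all 10 genes, the genes of each list called the same way in both lines, the largest increase and decrease called per list and line, and the 3 closest profiles of the 2 genes with the widest range. Other names stand for counts of 5 or fewer, for levels of ligands and receptors, or for neighbours, and were chosen after their values were seen. The alternatives changed the pseudocount, the FPKM minimum, the unit, the centring, the rows of repeated names, the limit and the reference. The scaling by the 75th percentile, the neighbours within 1 Mb and the shared windows were added after seeing the data. Protein identity was not analysed here. Some items are not reported here.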

Additional observations from a re-analysis of the deposited data

Results flagged for a closer look

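JAK1 and TYK2 changed in opposite directions in the 2 lines. The values of SOCS1 also had opposite signs, but its direction in SW1736 could not be told. The log2 fold change of JAK1 was -0.4069 in SW1736 and 0.3714 in 8505C, that of TYK2 was -0.4749 and 0.4572, and that of SOCS1 was -0.1236 and 0.6891. The counting interval of SOCS1 in SW1736 ran from -0.56 to 0.29, so no difference was detectable there. The same sign in both lines was seen for 7 of the genes described here and for 70.3% of the 13304 genes compared in both. With 1 library per condition the difference between the lines was not tested. With 8505C wt as the reference for SW1736-PTX, the values were -0.06 for JAK1, 0.89 for TYK2 and 1.12 for SOCS1.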

How the results depend on the processing

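No paired analysis was possible because each condition has 1 library, so the groups compared share fewer than 2 replicate numbers. A fit with the 2 cell lines as pairs was not run, since the lines are not replicates, and no library could be left out of a comparison. In SW1736, JAK2 was called down with a pseudocount of 0.01 FPKM and with TPM, so that the count was 1, and at a limit of 1 there were 3 up (STAT5A, SOCS3 and OSMR) and 1 down. In 8505C, the count of genes down was 0 with a pseudocount of 1 FPKM and at a limit of 2, and at a limit of 1 there were 2 up (STAT3 and STAT5A). Scaling by the 75th percentile, chosen after seeing the data, gave 1 up in SW1736 (OSMR) and 1 in 8505C (STAT5A). This scaling moved the median of all genes from 0.01 to 0.10 in SW1736 and from 0.11 to 0.20 in 8505C. The other 33 of the 42 counts of called genes did not move. Of 170 values of single genes under the alternatives, 131 stayed within the counting interval and 39 moved. With 8505C wt as the reference for SW1736-PTX the sign changed for TYK2 (0.89), SOCS1 (1.12) and SOCS3 (-0.15). The change of STAT6 in SW1736, 0.00, became -0.05 with TPM and -0.01 with centring on the median of all genes. Of 378 counts over the other lists, 66 moved by more than 1.5 times, 18 of them with a pseudocount of 1 FPKM, 14 with an FPKM above 0.5 in both libraries and 10 with 8505C wt as the reference. Depth limits SOCS1 most, at 32 to 100 reads, and the spread between cultures is unknown for every gene.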
